A study of Mus musculus with 2 samples.

Results

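The Ikaros family comprises the 5 zinc-finger transcription factor genes Ikzf1 to Ikzf5, and its members were taken by gene symbol from the 46095 entries of the count table, where each had 1 entry. Their transcripts were compared between 2 RNA sequencing libraries of mouse acute myeloid leukaemia cells, sorted from bone marrow as Mac1+ C-kit+ and named leukaemia-initiating cells in the labels. There was 1 library labelled P2X1-KO, given as a knockout of P2x1 (an ATP-gated cation channel, gene P2rx1) on the C57BL/6 strain at 8 weeks. The other library was labelled WT, given as wild type on the same strain at the same age. The protocol text also uses the names P2X1-KD and P2X1-Scr for these groups, so whether the receptor was lost by knockout or knockdown was not settled here. The sources used here do not give the leukaemia's driver, the construct or how many animals each library holds. With 1 library per group no difference below has a replicate check and no p-value was computed, and all intervals cover counting error only. In such bulk samples, fewer cells of a type and less RNA per cell cannot be told apart.

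Ikaros proteins bind DNA through a cluster of zinc fingers near the amino terminus, with GGGAA as the core of the site that Ikaros itself reads, and pair with each other through a second set of fingers at the carboxyl terminus. They recruit chromatin remodelling and histone deacetylase complexes, chiefly NuRD, and both silence and maintain genes of lymphoid development. Ikaros, from Ikzf1, is made from haematopoietic stem cells onward, and its loss by mutation is a known event in lymphoid leukaemia. Helios, from Ikzf2, is known from regulatory T cells and from mouse myeloid leukaemia stem cells, where it was reported to sustain self-renewal and hold back differentiation. Aiolos, from Ikzf3, is a factor of maturing B cells, Eos, from Ikzf4, a partner of FOXP3 in regulatory T cells, and Pegasus, from Ikzf5, is linked in humans to platelet formation.

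Because the members are related in sequence, the runs of bases that their coding parts share were determined first, since reads could be exchanged only over such runs. In GENCODE M21 transcripts on GRCm38, the longest run common to the coding parts of any 2 members was 26 bases, between Ikzf1 and Ikzf3. It lies in the last exon of each, exon 9 of Ikzf1 (chr11:11769483-11769508, plus strand) and exon 8 of Ikzf3 (chr11:98467059-98467084, minus strand). The longest run that Ikzf1 shares with each other member is given here 5′ to 3′ in coding sense. Each run is read in the same frame in both genes. Capitals mark codons for cysteine, a residue that helps to hold the zinc of a finger. The run shared with Ikzf2 lies in exon 6 of Ikzf1 (chr11:11754093-11754109), that shared with Ikzf4 in exon 9 (chr11:11769207-11769230) and that shared with Ikzf5 in exon 6 (chr11:11754117-11754128).
Ikzf1 and Ikzf3: gatccctttgagTGTaacatgTGTgg
Ikzf1 and Ikzf4: gactccacagatacagagagcaac
Ikzf1 and Ikzf2: gagaagcccttcaaatg
Ikzf1 and Ikzf5: TGCaactatgcc
None of the 50-base windows of any member's transcripts occurred in a transcript of another member. For Ikzf1 (5871 windows) and Ikzf3 (8703 windows), 0 windows occurred in any other annotated gene, and for Ikzf2 97 of 11844 (0.819%) did, all in an antisense gene model. For Ikzf4, 33 of 6229 windows (0.530%) did. Ikzf5 differed from these, with 4734 of 5818 windows (81.4%) also found in other genes. Of these, 4557 were shared with Pstk, a kinase gene of selenocysteine synthesis on the opposite strand, and 750 with the processed pseudogene Gm10356, a window being counted for each gene that holds it. Exons of Pstk cover 81.3% of the exon bases of Ikzf5. Since the strand setting of the counting is not given, reads of Ikzf5 and Pstk cannot be told apart with certainty, and every Ikzf5 value below is uncertain for that reason.

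The members are spread over 4 chromosomes (GRCm38, which mm10 denotes). Ikzf1 (ENSMUSG00000018654.17) spans 11685003 to 11772926 of chromosome 11, plus strand. The others lie on minus strands, Ikzf2 (ENSMUSG00000025997.13) on chromosome 1 from 69531214 to 69687245, Ikzf3 (ENSMUSG00000018168.8) on chromosome 11 from 98464902 to 98546031, Ikzf4 (ENSMUSG00000002578.17) on chromosome 10 from 128630843 to 128645991 and Ikzf5 (ENSMUSG00000040167.16) on chromosome 7 from 131388652 to 131410521. For Ikzf1, the member that made up most of the family's transcripts, RefSeq gives 2 starts, whose 250 preceding bases are shown 5′ to 3′ on the plus strand (GRCm38.p6, chr11:11685675-11685924 and chr11:11689927-11690176). Capitals mark the GGGAA core on either strand, so that TTCCC is the core read from the other strand.
Ikzf1, first start: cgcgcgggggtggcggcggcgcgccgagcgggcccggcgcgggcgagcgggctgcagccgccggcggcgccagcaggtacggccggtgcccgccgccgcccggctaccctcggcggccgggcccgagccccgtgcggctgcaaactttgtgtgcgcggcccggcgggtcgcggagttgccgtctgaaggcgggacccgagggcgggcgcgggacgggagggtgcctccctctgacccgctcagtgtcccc
Ikzf1, second start: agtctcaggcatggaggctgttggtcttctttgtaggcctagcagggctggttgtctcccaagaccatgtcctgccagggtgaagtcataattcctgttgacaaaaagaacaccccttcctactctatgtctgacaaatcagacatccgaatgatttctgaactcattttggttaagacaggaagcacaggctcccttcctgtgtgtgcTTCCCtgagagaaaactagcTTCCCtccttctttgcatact
The first window held 44 CpG dinucleotides, 82.0% G and C and 0 cores, and the second held 1 CpG, 47.6% G and C and 2 cores. Over all 32851 windows of that length in the RefSeq table, 56.2% held at least 1 core, the median GC content was 52.4% and the median number of CpG was 6. The window before the RefSeq start of Ikzf5, the other member in that table, held 18 CpG, 64.0% G and C and 1 core. Its last 43 bases are exon of Ikzf5 in GENCODE, and the core lies within them. Counts per gene do not show which start was used, and a match to GGGAA is a string of letters and not a bound site.

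The libraries differed in depth and in markers of mature cells. The P2X1-KO-labelled library held 9447894 counts over 16165 genes, and the WT-labelled one 14658620 counts over 19824 genes. P2rx1 was not lower in the P2X1-KO-labelled library, at 45 counts (5.07 CPM, counts scaled to a common library size) against 27 counts (1.73 CPM) in the WT-labelled library, a ratio of 2.93 (95% interval 1.78 to 4.90), so directions are given throughout between libraries as labelled. Kit and Itgam, the genes of the sort markers, were read in both, at 19.9 and 504 CPM in the P2X1-KO-labelled library against 13.3 and 307 CPM in the WT-labelled library. Of 10 maturing neutrophil and 10 monocyte and macrophage genes, 9 and 9 passed 2-fold upward in the P2X1-KO-labelled library. Of all 13382 genes at a mean of at least 1 CPM, 15.5% did. The remaining genes were lower there, Ly6g by 1.725-fold (1.17 to 2.59) and Ly6c2 by 1.10-fold (1.06 to 1.14). Among the genes that passed, Fpr1, C1qa, C1qb and C1qc reached that mean only through the P2X1-KO-labelled library. The summed levels of these lists were 12797 and 5775 CPM in the P2X1-KO-labelled library against 3214 and 916 CPM in the WT-labelled library. How far this difference in markers of maturing cells bears on the Ikaros family was not tested.

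Ikzf1, Ikzf2 and Ikzf5 were each lower in the P2X1-KO-labelled library, by 1.62-fold to 1.93-fold, while Ikzf3 was 19.7-fold higher there and Ikzf4 was not detected in either library. Ikzf1 was the predominant member in both libraries. Its transcripts made up 80.9% of the family's RPKM (CPM per kilobase of exon) in the P2X1-KO-labelled library and 80.2% in the WT-labelled library. These shares rest on merged exon lengths. They would be lower with the shorter length of Ikzf5 given below, though Ikzf1 would still stand highest. The summed counts of the family were 2014 (227 CPM) in the P2X1-KO-labelled library and 5824 (374 CPM) in the WT-labelled library, which is 1.65-fold lower in the P2X1-KO-labelled library (95% interval 1.57 to 1.73). Of the 5 genes, 4 reached a mean of 1 CPM over both libraries. Ikzf3 did so only through the P2X1-KO-labelled library, so that it had to differ to be included.

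**Figure D1:**
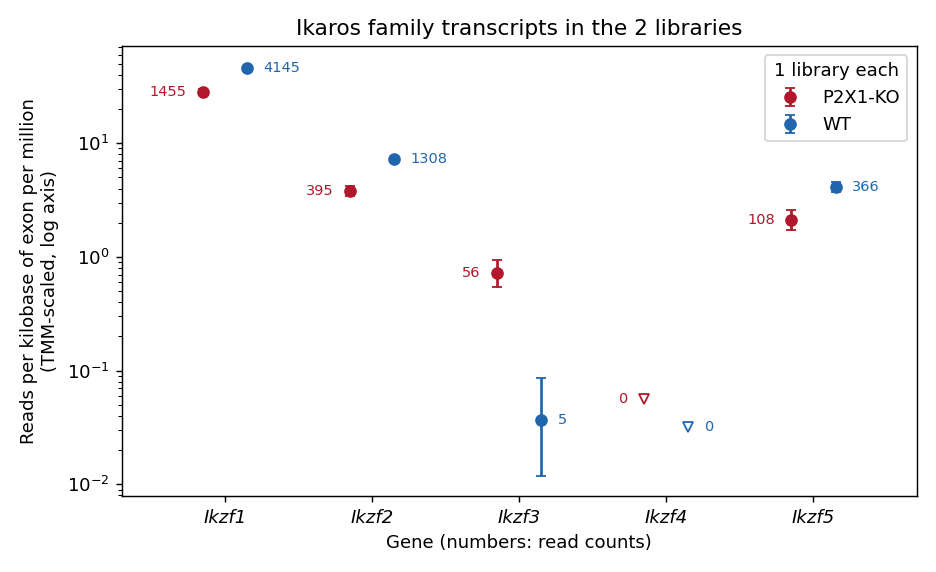
Level of each Ikaros family gene in RPKM (CPM per kilobase of exon) on a log axis, with the P2X1-KO-labelled library in red on the left of each pair and the WT-labelled one in blue on the right. Points carry exact 95% Poisson intervals and read counts, and open triangles mark the level that 3 counts would give for Ikzf4, which had 0. Ikzf1 stands highest in both libraries, and Ikzf3 is the member whose red point lies above its blue point.

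Ikzf1 had 1455 counts in the P2X1-KO-labelled library (exact 95% Poisson interval 1381 to 1532), or 164 CPM. It had 4145 counts in the WT-labelled library (4020 to 4273), or 266 CPM. Ikaros transcripts were thus abundant in both libraries and 1.62-fold lower in the P2X1-KO-labelled one (95% interval 1.53 to 1.72), under the 2-fold size used here for calls.

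Ikzf2, encoding Helios, had 395 counts in the P2X1-KO-labelled library (44.5 CPM) and 1308 in the WT-labelled library (83.9 CPM). This is 1.89-fold lower in the P2X1-KO-labelled library (1.68 to 2.12). The interval spans 2-fold, so these counts do not settle on which side of that size Ikzf2 lies. With the libraries scaled by their total counts, Ikzf2 was 2.13-fold lower (1.91 to 2.40).

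Ikzf5, encoding Pegasus, had 108 counts in the P2X1-KO-labelled library (12.2 CPM) and 366 in the WT-labelled library (23.5 CPM), 1.93-fold lower in the P2X1-KO-labelled library (1.55 to 2.42). Pstk, which shares most of these exons on the other strand, had 111 counts there and 172 in the WT-labelled library, a ratio of 1.13 (0.884 to 1.45). The pseudogene Gm10356 had 0 counts in the P2X1-KO-labelled library and 8 in the WT-labelled one. The interval of Pstk spans no change, while that of Ikzf5 lies wholly below it.

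Ikzf3, encoding Aiolos, had 56 counts in the P2X1-KO-labelled library (42.3 to 72.7), or 6.30 CPM. It had 5 counts in the WT-labelled library (1.62 to 11.7), or 0.321 CPM. The ratio of 19.7 has an interval of 7.94 to 62.9, wide because of the 5 counts in the WT-labelled library, but the whole interval lies above 2-fold. Ikzf3 was low in both libraries by level, at 0.720 RPKM in the P2X1-KO-labelled library against 0.0366 in the WT-labelled library. Ikzf4, encoding Eos, had 0 counts in each, where 3 counts would be 0.338 CPM in the P2X1-KO-labelled library and 0.192 CPM in the WT-labelled library, so lower levels could not be detected at this depth.

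Of the 4 members that reached 1 CPM, 1 passed 2-fold upward in the P2X1-KO-labelled library, against 15.5% of all 13382 genes at that mean, and 0 passed 2-fold downward, against 14.0%. At 1.5-fold, 3 members were lower and 1 higher, against 26.2% and 25.2% of all genes. Ikzf1, Ikzf2 and Ikzf5 also passed a mean of 5 CPM, at which 12.1% of genes were past 2-fold upward and 10.6% downward. The intervals of Ikzf1, Ikzf2 and Ikzf5 lay wholly below no change, as did those of 40.3% of all genes. A ratio at or above that of Ikzf3 was seen for 166 genes (1.24%), and a whole interval above 2-fold, as for Ikzf3, for 10.2%. The differences of Ikzf1, Ikzf2 and Ikzf5 are thus of a size that was common between these libraries. Nothing is read from the shares given for Ikzf3, which reached the minimum only through the library in which it was high.

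**Figure D2:**
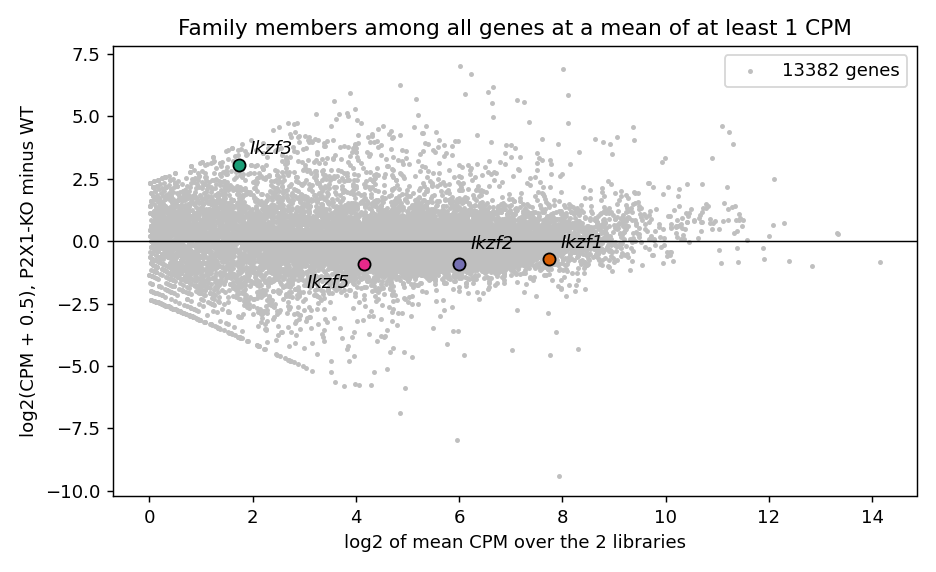
Difference in log2(CPM + 0.5) between the P2X1-KO-labelled library and the WT-labelled one (vertical) against log2 of the mean CPM (horizontal) for 13382 genes in grey, with 4 Ikaros family members in colour. Ikzf1, Ikzf2 and Ikzf5 lie between -0.70 and -0.92 inside the bulk of genes, and Ikzf3 lies at 3.05 among low genes near the upper edge.

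Ikaros family transcripts are long, and genes of like exon length and GC content were also lower in the P2X1-KO-labelled library at the median. Merged exons spanned 5777 bases for Ikzf1, 11613 for Ikzf2, 8754 for Ikzf3 and 5721 for Ikzf5. Genes in the same bins of exon length and GC content had summed median log2 differences between -0.26, in the bins of Ikzf5, and -0.45, in those of Ikzf2, against -0.06 over all genes. After those medians were subtracted, Ikzf1 was 1.31-fold lower (1.23 to 1.39), Ikzf2 1.38-fold lower (1.23 to 1.55) and Ikzf5 1.61-fold lower (1.29 to 2.01) in the P2X1-KO-labelled library, and Ikzf3 25.2-fold higher (10.2 to 80.5). All 4 kept their direction under each of the 6 ways of scaling tried.

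**Figure D3:**
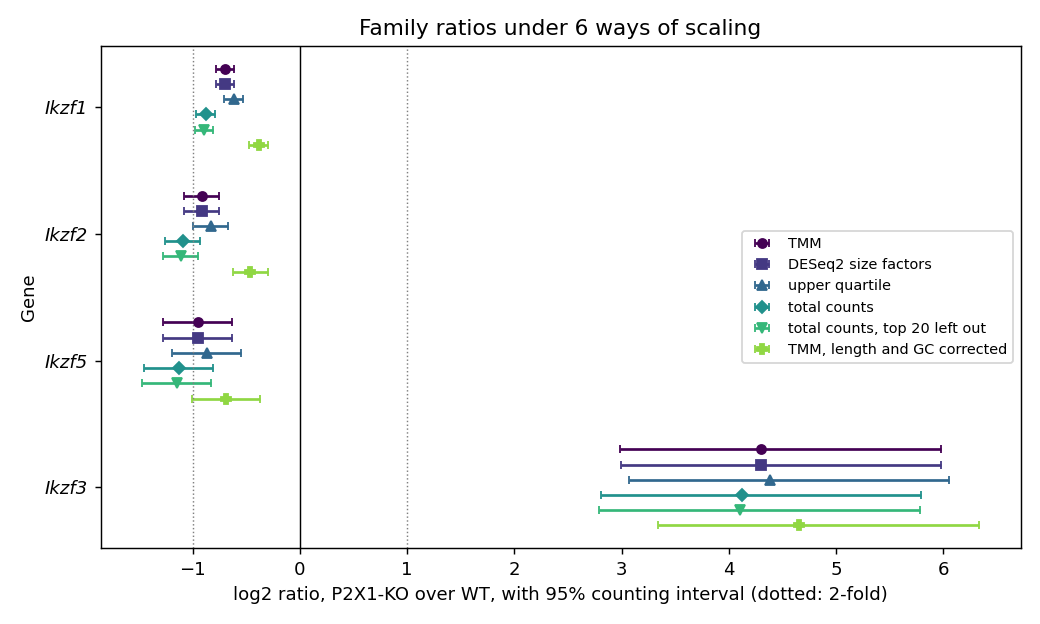
log2 ratio of the P2X1-KO-labelled library over the WT-labelled one for 4 members (rows) under 6 ways of scaling (symbols), with exact 95% counting intervals and dotted lines at 2-fold. Ikzf1, Ikzf2 and Ikzf5 stay left of 0 and Ikzf3 right of 0 in every setting, with Ikzf2 and Ikzf5 past 2-fold under the 2 settings based on total counts.

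Ratios between members inside a library do not depend on library size, though they do depend on any correction that moves the members by different amounts. There were 3.85 Ikzf3 reads per 100 Ikzf1 reads in the P2X1-KO-labelled library and 0.121 in the WT-labelled library, a quotient of 31.9 (exact conditional 95% interval 12.8 to 102). For Ikzf2 there were 27.2 reads per 100 Ikzf1 reads in the P2X1-KO-labelled library and 31.6 in the WT-labelled library, a quotient of 0.860 (0.755 to 0.979). For Ikzf5 there were 7.42 in the P2X1-KO-labelled library and 8.83 in the WT-labelled library, a quotient of 0.841 with an interval that spans 1 (0.666 to 1.05). The balance of Ikzf5 to Ikzf2 was nearly level, at a quotient of 0.977 (0.759 to 1.25). After the length and GC correction, the quotient of Ikzf2 to Ikzf1 was 0.949 with an interval that spans 1 (0.833 to 1.08), so the lower value of Helios relative to Ikaros was then within counting error. That of Ikzf5 to Ikzf1 was then 0.812 (0.644 to 1.02) and that of Ikzf3 to Ikzf1 32.8 (13.2 to 105).

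Per kilobase of exon, the order of the members was the same in both libraries. In the P2X1-KO-labelled library, Ikzf1 had 28.4 RPKM (26.9 to 29.9), Ikzf2 3.83 (3.46 to 4.23), Ikzf5 2.13 (1.74 to 2.57) and Ikzf3 0.720 (0.544 to 0.935). In the WT-labelled library, Ikzf1 had 46.0 (44.6 to 47.4), Ikzf2 7.22 (6.84 to 7.63), Ikzf5 4.10 (3.69 to 4.55) and Ikzf3 0.0366 (0.0119 to 0.0855). The intervals of neighbours in this order do not overlap in either library, save that Ikzf3 in the WT-labelled library is not set apart from Ikzf4, for which 3 counts would give 0.0321. The place of Ikzf5 depends on the length used. Its merged exons hold 886 bases that no other gene covers, and the files do not show where in the gene the reads fell. Were reads on shared bases left out by the counting, the whole count divided by those 886 bases would give 13.7 in the P2X1-KO-labelled library and 26.5 in the WT-labelled one, above Ikzf2 at 3.88 and 7.32 by the same rule, a length chosen after the overlap with Pstk was seen.

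Markers of lymphoid cells were read at low levels or not at all, apart from Cd79b and Ighm. Of 12 B lineage genes, 3 reached a mean of 1 CPM, 5 had 0 counts in the P2X1-KO-labelled library and 4 in the WT-labelled library, including Ms4a1, Pax5, Ebf1 and Vpreb3 in both. The summed level of the 12 genes was 58.3 CPM in the P2X1-KO-labelled library and 28.1 CPM in the WT-labelled library, of which Cd79b, a subunit of the B cell receptor, gave 47.4 and 14.7 CPM. Ighm, the heavy chain gene of IgM, had 68 counts in the P2X1-KO-labelled library and 158 in the WT-labelled one. Of 14 T and NK lineage genes, 10 had 0 counts in the P2X1-KO-labelled library and 6 in the WT-labelled one, with sums of 2.93 and 7.38 CPM. Cd3g, Cd4, Cd8a, Ncr1 and Ctla4 were at 0 in both, and Foxp3 had 10 counts in the P2X1-KO-labelled library and 17 in the WT-labelled one. The 6 plasmacytoid dendritic cell genes summed to 265 CPM in the P2X1-KO-labelled library and 68.1 CPM in the WT-labelled one. Of these, Siglech and Ccr9 were at 0 in both, while Irf8, which myeloid cells also express, was at 170 CPM in the P2X1-KO-labelled library against 25.9 CPM in the WT-labelled one. The genes at 0 in both were named for that, so nothing about Ikzf3 is read from them. Cd79b was 3.23-fold higher (2.74 to 3.81) in the P2X1-KO-labelled library, as Ikzf3 was, and Cd3e had 8 counts there against 0. In the other direction, Lck had 2 counts there against 32 in the WT-labelled one, Cd247 0 against 24 and Thy1 6 against 33. The part of lymphoid cells in the Ikzf3 reads was not tested.

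Some marker genes of other cell types also differed between the libraries, and single genes gave much of some list sums. Of 7 eosinophil, mast cell and basophil genes, Prg2 (eosinophil major basic protein) was at 129 CPM in the P2X1-KO-labelled library and 0.513 CPM in the WT-labelled library, and the list summed to 172 and 34.9 CPM. Prg2 thus gave most of the P2X1-KO sum. Cpa3 was at 18.7 CPM in the P2X1-KO-labelled library and 0.0641 CPM in the WT-labelled one, and Epx had 5 counts against 1. Mcpt8, a basophil protease gene of that list, was 1.48-fold lower (1.26 to 1.75), at 23.0 CPM in the P2X1-KO-labelled library and 34.0 CPM in the WT-labelled one, and Fcer1a and Il5ra were at 0 in both. Of 6 stromal genes, 4 reached a mean of 1 CPM, with list sums of 250 and 95.1 CPM in the libraries labelled P2X1-KO and WT. Of these, 3, all fibrillar collagens, passed 2-fold upward in the P2X1-KO-labelled library, where 15.5% of all genes did. Those 3 reached the minimum only through that library, so they had to differ to be included. In the WT-labelled library Col1a1 was at 0.962 CPM, and Col1a2 and Col3a1 had 0 counts. Pdgfrb, a receptor gene of that list, was 1.98-fold lower (1.77 to 2.21), at 47.1 CPM in the P2X1-KO-labelled library and 93.1 CPM in the WT-labelled one, and Cxcl12 had 0 counts in the P2X1-KO-labelled library and 14 in the WT-labelled one. The 7 megakaryocyte genes summed to 22.3 CPM in the P2X1-KO-labelled library and 4.81 CPM in the WT-labelled one, with Gp1ba, Pf4 and Ppbp at 0 in both. Vwf alone gave 16.8 and 1.99 CPM of these sums. Only 2 of the 7 reached a mean of 1 CPM, and the interval of the other, Itga2b, spans no change (0.959 to 2.56). The 6 erythroid genes summed to 2.14 CPM in the P2X1-KO-labelled library and 0.898 CPM in the WT-labelled one. Of these, 0 reached a mean of 1 CPM, and Klf1 had 0 counts in the P2X1-KO-labelled library against 9. The part of these cells in the Ikzf3 reads was not tested.

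The complexes through which Ikaros proteins act lay mostly within 2-fold. All 13 NuRD genes were measured, of which 0 passed 2-fold upward, where 15.5% of all genes did, and 1 downward, where 14.0% did, in the P2X1-KO-labelled library, with a median log2 difference of -0.34 against -0.06 over all genes. Chd3, encoding a Mi-2 remodelling ATPase, was 3.04-fold lower (2.66 to 3.49), at 29.4 CPM in the P2X1-KO-labelled library and 89.4 CPM in the WT-labelled one. Chd4, the main Mi-2 ATPase found with Ikaros in lymphocytes, was at 302 CPM in the P2X1-KO-labelled library and 429 CPM in the WT-labelled one, 1.42-fold lower (1.36 to 1.49). Gatad2b, a scaffold subunit, was 1.52-fold lower (1.36 to 1.71). In the other direction, Mta3 was 1.29-fold higher (1.16 to 1.44), while the intervals of Mbd2 (1.05, 0.983 to 1.13) and Hdac2 (1.05, 0.950 to 1.15) span no change. After the length and GC correction, the list median was -0.20. Chd3 was then 2.46-fold lower (2.16 to 2.82) and Chd4 1.15-fold lower (1.10 to 1.20). Gatad2b was then 1.07-fold lower with an interval that spans no change (0.959 to 1.20), and Hdac2 was 1.25-fold higher.

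Among 6 other corepressor and remodelling genes, 0 passed 2-fold upward and 1 downward, against 15.5% and 14.0% of all genes (median -0.21, and -0.03 after the length and GC correction). That gene was Ctbp2, a corepressor of the CtBP class that Ikaros proteins bind, at 55.5 CPM in the P2X1-KO-labelled library against 121 CPM in the WT-labelled one, 2.18-fold lower (1.97 to 2.41). After the length and GC correction it was 1.92-fold lower (1.74 to 2.13), which ends the call. Its paralog Ctbp1 was 1.13-fold lower (1.07 to 1.19). Sin3a and Smarca4, encoding the scaffold of a deacetylase complex and a SWI/SNF ATPase, were 1.19-fold and 1.21-fold lower, Sin3b was level at a ratio of 0.999 (0.934 to 1.07), and Smarcb1 was 1.18-fold higher (1.08 to 1.28). With the correction, Sin3a was level (ratio 1.004) and Sin3b 1.24-fold higher.

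Enzymes that act on Ikaros proteins gave a like picture. Casein kinase 2 phosphorylates Ikaros and protein phosphatase 1 removes those phosphates. Of their 6 genes, 5 were measured, 0 past 2-fold upward and 1 downward, against 15.5% and 14.0% of all genes (median -0.42, and -0.12 after the length and GC correction). Csnk2a2, a catalytic subunit gene, was at 37.4 CPM in the P2X1-KO-labelled library and 78.3 CPM in the WT-labelled one, 2.09-fold lower (1.85 to 2.37), and 1.65-fold lower (1.46 to 1.87) after that correction, which ends the call. Csnk2a1 was 1.37-fold lower (1.23 to 1.52). Csnk2b is listed at 0 counts in both. The phosphatase genes Ppp1cc and Ppp1cb were 1.34-fold and 1.16-fold lower and Ppp1ca 1.33-fold higher (1.07 to 1.66), and Ppp1cb turned to 1.19-fold higher with the correction.

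Cereblon, from Crbn, is the substrate receptor of the ubiquitin ligase that drugs of the thalidomide class turn against IKAROS and AIOLOS in human cells. Of the 5 genes of that ligase, 0 passed 2-fold upward and 0 downward, against 15.5% and 14.0% of all genes. Their median was -0.55, and -0.40 after the length and GC correction. Crbn was at 30.9 CPM in the P2X1-KO-labelled library and 36.7 CPM in the WT-labelled one, 1.19-fold lower (1.03 to 1.38), and at a ratio of 1.06 after the correction. The scaffold gene Cul4a was 1.98-fold lower (1.75 to 2.25), the adaptor gene Ddb1 1.76-fold lower (1.66 to 1.85) and Cul4b 1.47-fold lower (1.29 to 1.69). Rbx1, the RING subunit gene, was 1.15-fold higher (1.04 to 1.28).

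Genes tied to Ikaros in work on lymphoid precursors divided into hardly read and measured genes. Of 21, 10 were under a mean of 1 CPM, among them the recombination genes Rag1, Rag2 and Dntt at 0 in both libraries and the surrogate light chain genes Igll1 and Vpreb1 at 1 count each in the P2X1-KO-labelled library against 4 and 1 in the WT-labelled one. Of the 11 measured, 6 passed 2-fold upward in the P2X1-KO-labelled library, where 15.5% of all genes did (median 1.08). Downward, 0 passed, where 14.0% of all genes did. Among the 6, Hes1 reached the minimum only through the P2X1-KO-labelled library, at 1.91 CPM against 0.321 CPM. With no minimum, the median over the 18 genes with at least 1 count was 0.52. Most of these genes also have roles outside lymphoid cells, and Igll1, Vpreb1, Blnk and Cd79b stand in the B lineage list as well.

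Bcl6, a transcriptional repressor gene, was at 48.8 CPM in the P2X1-KO-labelled library and 4.23 CPM in the WT-labelled one, 11.5-fold higher (8.87 to 15.2). Ccnd2, encoding cyclin D2, was 7.94-fold higher (5.74 to 11.2), at 23.4 CPM in the P2X1-KO-labelled library and 2.95 CPM in the WT-labelled one. Myc, a gene that Ikaros represses in pre-B cells, was 6.08-fold higher (5.40 to 6.87), at 137 CPM in the P2X1-KO-labelled library and 22.4 CPM in the WT-labelled one. Flt3, a progenitor receptor gene, was the member that stood lowest, 1.52-fold lower (1.36 to 1.70). Notch1 was level at a ratio of 1.01 (0.936 to 1.09), and the Notch target Hes1 had 17 counts in the P2X1-KO-labelled library against 5 in the WT-labelled one.

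Factors tied to Ikzf2 in mouse myeloid leukaemia stood on both sides. Of 9, 3 passed 2-fold upward and 1 downward in the P2X1-KO-labelled library, against 15.5% and 14.0% of all genes (median 0.01, and -0.17 with total counts). Msi2, an RNA-binding protein gene of leukaemia stem cells, was 3.09-fold lower (2.37 to 4.10), at 7.32 CPM in the P2X1-KO-labelled library against 22.6 CPM in the WT-labelled one. Meis1 was 1.62-fold lower (1.5 to 1.76) and Hoxa9 1.15-fold lower (1.10 to 1.21). The myeloid differentiation factors Cebpb, Cebpe and Cebpd were 3.04-fold (2.88 to 3.22), 2.72-fold (2.56 to 2.88) and 2.36-fold (2.16 to 2.59) higher. Cebpa was 1.20-fold lower (1.09 to 1.32). After the length and GC correction, Msi2 was 2.11-fold lower and Meis1 1.11-fold lower (1.02 to 1.20). Hoxa9 was then 1.04-fold lower with an interval that spans no change (0.985 to 1.09). Cebpb, Cebpe and Cebpd were then 2.45-fold, 2.19-fold and 2.48-fold higher.

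**Figure D4:**
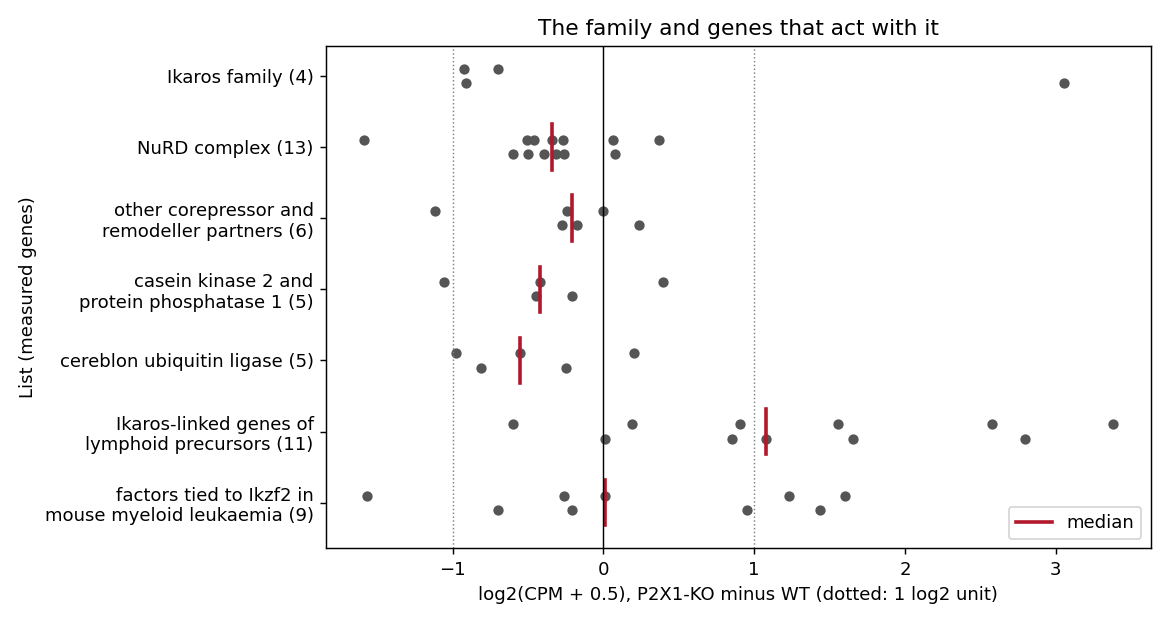
Difference in log2(CPM + 0.5) between the P2X1-KO-labelled library and the WT-labelled one for genes with a mean of 1 CPM or more (points), by list, with list medians as red bars except for the Ikaros family itself. The partner lists gather between -1.59 and 0.40, and the Ikaros-linked genes of lymphoid precursors reach 3.38.

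Trps1, a transcription factor gene whose last fingers resemble the pairing fingers of the Ikaros family, was higher in the P2X1-KO-labelled library, as Ikzf3 was. It had 493 counts there (55.5 CPM) and 61 counts in the WT-labelled library (3.91 CPM), a ratio of 14.2 (10.9 to 18.8).

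The nearest protein-coding genes beside the members on their chromosomes were near level or hardly read, apart from those beside Ikzf4 and 1 beside Ikzf5. Fignl1, 14504 bases beyond Ikzf1, had 177 counts in the P2X1-KO-labelled library and 285 in the WT-labelled one, a ratio of 1.09 (0.899 to 1.32). Beside Ikzf3, Grb7 had 0 and Zpbp2 1 count in the P2X1-KO-labelled library, against 8 and 6 in the WT-labelled one, too few to set a direction. Erbb4 and Spag16, which flank Ikzf2, had 0 counts in the P2X1-KO-labelled library and 0 and 2 in the WT-labelled one. Acadsb, 79 bases from the start of Ikzf5 and read away from it, had a ratio of 1.12 (0.917 to 1.37), and 2310057M21Rik on the other side was 1.38-fold lower (1.07 to 1.78). Beside Ikzf4, which had 0 counts, lies Rps26, a ribosomal protein gene 4095 bases away. It had 20696 counts in the P2X1-KO-labelled library and 16029 in the WT-labelled one, a scaled ratio of 2.27 (2.22 to 2.31). Suox, on the other side, had 50 and 58 counts, a scaled ratio of 1.51 (1.015 to 2.25). On the far side of Ikzf1, 4930512M02Rik had 0 counts in both.

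The genes nearest to each member in level were found by the distance of log2(CPM + 0.5) over the 2 libraries, among 10667 named protein-coding genes, so that each likeness rests on 2 points. For Ikzf1 they were Slc25a37, Cs and Khsrp, at distances of 0.027 to 0.074. For Ikzf2 they were Pafah1b2, Tsr1 and Dhx40 (0.029 to 0.061), and for Ikzf5 As3mt, Trmt44 and Nt5dc3 (0.027 to 0.037). For Ikzf3 they were Cav2, Thbd and Clec4n (0.049 to 0.070), with 54, 59 and 59 counts in the P2X1-KO-labelled library against 5 each in the WT-labelled one.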

How the data were processed

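RNA was measured in 2 sorted mouse leukaemia libraries, 1 labelled P2X1-KO and 1 labelled WT. The authors deposited raw counts of reads for each gene symbol. The submitters' processing notes name HISAT2 2.0.4 and mm10, and the sources used here do not give the counter, annotation, strand setting or filters. Totals were 9447894 counts in the P2X1-KO-labelled library and 14658620 in the WT-labelled one, so the WT-labelled library has the narrower intervals.

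Scaling was by TMM (trimmed mean of M values; edgeR 4.0.16, R 4.3.3) to effective sizes of 8882591 (P2X1-KO) and 15591519 (WT). Ratios of CPM, P2X1-KO over WT, carry exact binomial (Clopper-Pearson) 95% intervals, and quotients of within-library ratios exact conditional ones (scipy 1.17.1). PCR copies are not independent molecules, so these cover counting error only. Log2 differences add 0.5 CPM, which understates differences of low genes. Where a gene had 0 counts, 3 counts served as the floor. Calls were ratios of 2-fold or more among genes whose mean was 1 CPM or more. Intervals were checked on simulated counts with 200 changed genes. Those counts were drawn with counting error alone at the same library sizes, so the check covers no other source of variation. Exons came from GENCODE M21; 92.6% of genes at that mean had a length and GC content. Promoters came from RefSeq (GRCm38.p6), which matched 2 of the 5 members. Alternatives were total counts, upper-quartile scaling, DESeq2 1.42.0 size factors, other minimums, thresholds and pseudocounts, other exon lengths, and a correction within 20 bins of length and of GC content.

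Named genes were the 5 members, P2rx1, Kit and Itgam, all members of partner lists of 6 or fewer, up to 3 genes in each direction from the longer lists by the interval bound nearest to no change, the 3 genes nearest in level to each member, the protein-coding gene on each side, and genes of the marker lists. Pstk and Gm10356, and Hes1, Notch1, Cebpa, Igll1, Vpreb1, Rag1, Rag2 and Dntt, were named after their values were seen. The members and lists were chosen with earlier results of these data known.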

Additional observations from a re-analysis of the deposited data

How the results depend on the processing

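The direction of Ikzf1, Ikzf2, Ikzf3 and Ikzf5 was the same under total counts, total counts without the 20 most abundant genes, upper-quartile scaling, DESeq2 size factors and the length and GC correction. The ratio of Ikzf1, P2X1-KO over WT, was 0.616 with TMM, 0.545 with total counts, 0.538 without the 20 most abundant genes and 0.766 after the length and GC correction. That of Ikzf2 was 0.530, 0.469, 0.463 and 0.726 in the same order. Members at least 2-fold lower numbered 0 with TMM, where 14.0% of all genes were, but 2, Ikzf2 and Ikzf5, under both settings based on total counts. Among all genes, 2463 of 13397 were so with total counts and 2600 of 13615 without the 20 most abundant genes. At a threshold of 1.5-fold, 3 members were lower, where 26.2% of all genes were. At a minimum of 5 CPM, Ikzf3 was not included and 0 members were at least 2-fold higher, where 12.1% of genes were. The median log2 difference of all genes was -0.06 with TMM, -0.23 with total counts and -0.25 without the 20 most abundant genes, and the split of all genes past 2-fold was 52.6% upward and 47.4% downward with TMM against 40.9% and 59.1% with total counts. Of 50 partner and pathway genes at a mean of 1 CPM or more, 4 were at least 2-fold lower, where 14.0% of all genes were. At least 2-fold higher were 10, where 15.5% of all genes were. With no minimum, 9 of 57 were lower and 11 higher, for which no share over all genes was computed. After the length and GC correction, 12 of the 50 were higher, where 1970 of all 13382 genes were. Those lower then numbered 2, Chd3 and Msi2, where 1643 of all genes were, while Ctbp2 and Csnk2a2 were no longer past 2-fold. The median of the factors tied to Ikzf2 was 0.01 with TMM, -0.17 with total counts and -0.19 without the 20 most abundant genes. Of 54 values of list medians under alternatives, 50 kept their sign and moved by less than 0.25. Those 2 of the Ikzf2 factors changed sign, and 2 moved further, the median of casein kinase 2 and protein phosphatase 1 to -0.12 after the correction and that of the lymphoid precursor genes to 0.52 with no minimum. The quotient of Ikzf2 to Ikzf1 spans 1 after the correction (0.833 to 1.08), an alternative chosen after seeing the data. With the longest transcript as length, RPKM in the libraries labelled P2X1-KO and WT were 31.7 and 51.5 for Ikzf1, 4.79 and 9.04 for Ikzf2, and 2.75 and 5.30 for Ikzf5, and 1.37 for Ikzf3 in P2X1-KO. Dividing the whole count of Ikzf5 by its exon bases covered by no other gene, a length chosen after seeing the data, gave 13.7 and 26.5. No paired analysis was possible because each group has 1 library with no replicate number in its labels. Depth limits Ikzf3 (5 counts in the WT-labelled library) and Ikzf4 (0 in both).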
